A study of Homo sapiens with 9 samples.

Results

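The forkhead box O (FOXO) group examined here held 10 of the 27671 genes in the count table of A498 cells. It comprised the transcription factors FOXO1, FOXO3 and FOXO4, together with FBXO32, BCL6, TXNIP, SESN3, PIK3IP1, IRS2 and INSR, which are commonly named as their targets or belong to insulin signalling. All 10 members were found by symbol. The members were picked by name with earlier results of these data known, and FBXO32 was also selected on its measured rise after ARNT depletion. Values that compare shARNT with shControl are therefore given for the members as a description without a p-value, and FBXO32 has none in any comparison, since it was chosen on libraries that each of them shares.

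FOXO factors bind DNA and switch on genes for cell cycle arrest, stress resistance, autophagy and fasting metabolism. Insulin and growth factors act through PI3K and the kinase AKT, which phosphorylates FOXO proteins so that they are held in the cytoplasm by 14-3-3 proteins. When AKT is quiet the factors enter the nucleus, and among the genes they raise are IRS2 and INSR, which feed back on insulin signalling, and FBXO32, best known as atrogin-1 from wasting skeletal muscle. RNA sequencing measures transcript levels and not the phosphorylation or location of FOXO proteins.

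A498 is a widely used human cell line derived from a clear cell renal carcinoma (ccRCC). All 9 libraries came from cells in serum-containing medium that had been infected with a pLKO.1 lentivirus and selected with puromycin, and they differed in the short hairpin RNA (shRNA). The hairpin was a control in shControl, directed at BMAL1 (listed as ARNTL) in shBMAL1 and directed at ARNT in shARNT, with 3 biological replicates each. The labels separate no hairpins within a group, and each depletion is read as 1 construct, so an effect of the construct and an effect of the gene cannot be told apart.

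Library totals lay between 35269851 and 36099075 counts, and 15551 genes were tested. Levels are given as CPM, counts scaled to a common library size after the TMM normalization of edgeR. A gene is called when its adjusted p from the edgeR quasi-likelihood test is under 0.1, and fold changes are on the log2 scale. In shARNT, ARNT was at 18.8% of its shControl level, and in shBMAL1, ARNTL was at 30.9%. The ARNT transcript was also lower in shBMAL1, at 63.9% of shControl (log2 fold change -0.64, SE 0.0599, adjusted p = 1.55e-08). In shARNT the ARNTL transcript was higher, at 146.4% of shControl (log2 fold change 0.55, SE 0.0866, adjusted p = 8.29e-06). All 9 markers of kidney tumour cells had reads, 1 of them at 3 counts or fewer in the shARNT libraries, and their summed level was 7998 to 8053 CPM in shControl, 5918 to 6407 CPM with shBMAL1 and 2101 to 2257 CPM with shARNT. The members of that list moved differently, with means in the same order of 5974, 4309 and 812 CPM for VIM, 36.0, 40.7 and 100 CPM for PAX8, 566, 472 and 563 CPM for KRT18, and 76.4, 30.2 and 1.06 CPM for CA9. Of 7 skeletal muscle markers, MYOD1, MYH1 and MYH2 were at 0 counts in all 9 libraries and CKM never exceeded 3 counts. Their summed level was 6.60 to 8.20 CPM in shControl, 3.54 to 4.50 CPM with shBMAL1 and 2.85 to 3.97 CPM with shARNT. That sum came mostly from DES (means of 5.47, 2.31 and 0.875 CPM in the same order) and ACTA1 (1.83, 1.80 and 2.42 CPM). In the leukocyte list of 4 genes CD3E was at 0 counts throughout, and its sum of 1786 to 1905 CPM in shControl, 1753 to 1865 CPM with shBMAL1 and 136 to 148 CPM with shARNT came almost wholly from CD68, a lysosomal protein gene. The 3 endothelial markers summed to 0.323 CPM at most in any library. The part of these shifts in the members' values was not tested.

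Among the factors, FOXO4 had the widest gap between shARNT and the other groups. It lies on chromosome X (70315701 to 70323382, GRCh37) and encodes the smallest of the 3 factors. Its counts were 102, 78 and 87 in shControl, 80, 114 and 103 in shBMAL1, and 523, 511 and 551 in shARNT. Each shARNT library thus lay far above the other 6 libraries, while shControl and shBMAL1 overlapped. In bulk RNA, fewer expressing cells and less RNA per cell cannot be told apart, here and for every other gene. The mean level was 2.69 ± 0.351 CPM (SD, n = 3) in shControl, 2.89 ± 0.499 CPM in shBMAL1 and 13.3 ± 0.496 CPM in shARNT. The log2 fold change of shBMAL1 against shControl was 0.10 (SE 0.153, adjusted p = 0.58), with a 95% interval from -0.21 to 0.42, so a change was not detectable there. FOXO4 was 4.61-fold higher in shARNT than in shBMAL1 (log2 fold change 2.20, SE 0.131, adjusted p = 3.72e-12). Against shControl the log2 fold change of shARNT was 2.31 (SE 0.133).

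FOXO3 (chromosome 6, 108881038 to 109005977), the factor most studied in stress resistance, moved in opposite directions in the depletions. Its levels were 12.8 to 13.5 CPM in the shControl libraries, 10.5 to 11.8 CPM in shBMAL1 and 16.1 to 18.2 CPM in shARNT, and no pair of groups overlapped. It fell in shBMAL1 (log2 fold change -0.24, SE 0.0842, adjusted p = 0.0212). It was higher in shARNT than in shBMAL1 (log2 fold change 0.63, SE 0.0816, adjusted p = 6.14e-07), and the log2 fold change of shARNT against shControl was 0.39 (SE 0.0807). A near-identical copy, FOXO3B, is known in the human genome and had no row of its own in the count table, so FOXO3 values are uncertain where reads could come from either.

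FOXO1 (chromosome 13, 41129804 to 41240778), the main FOXO factor of insulin action in liver, rose in shBMAL1. Counts were 151, 112 and 109 in shControl, 191, 163 and 199 in shBMAL1, and 189, 167 and 205 in shARNT. The shBMAL1 libraries all lay above the shControl libraries, whereas 1 shControl library lay within the range of shARNT. The log2 fold change was 0.52 in shBMAL1 (SE 0.151, adjusted p = 0.00561) and 0.33 in shARNT (SE 0.151). Between the depletions it was -0.19 (SE 0.145, adjusted p = 0.234), with an interval from -0.49 to 0.11. FOXO6, a further family member outside the group, had 21 to 38 counts per library and was not called in any of the 3 comparisons (adjusted p = 0.943, 0.686 and 0.622).

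To compare the factors with each other, levels were divided by the length of the canonical transcript, which is 5779 bases for FOXO1, 7296 for FOXO3 and 3644 for FOXO4. On this scale FOXO3 led in shControl with 1.79 ± 0.0467 CPM per kb, and FOXO4 (0.738 ± 0.0962) and FOXO1 (0.648 ± 0.119) overlapped with each other. In shBMAL1 the order of the leading factor was kept, with 1.52 ± 0.0882 CPM per kb for FOXO3 and overlapping levels of FOXO1 (0.933 ± 0.101) and FOXO4 (0.794 ± 0.137). In shARNT, FOXO4 led with 3.66 ± 0.136 CPM per kb, above FOXO3 (2.36 ± 0.14) and FOXO1 (0.817 ± 0.082), and none of these overlapped. FOXO4 made up 23.2% ± 1.29 of the summed level per length in shControl, 24.4% ± 4.09 in shBMAL1 and 53.6% ± 0.746 in shARNT, and the sum itself was 3.18 ± 0.256, 3.25 ± 0.182 and 6.83 ± 0.312 CPM per kb. The lengths come from GENCODE and may differ from the gene models used for counting.

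**Figure D1:**
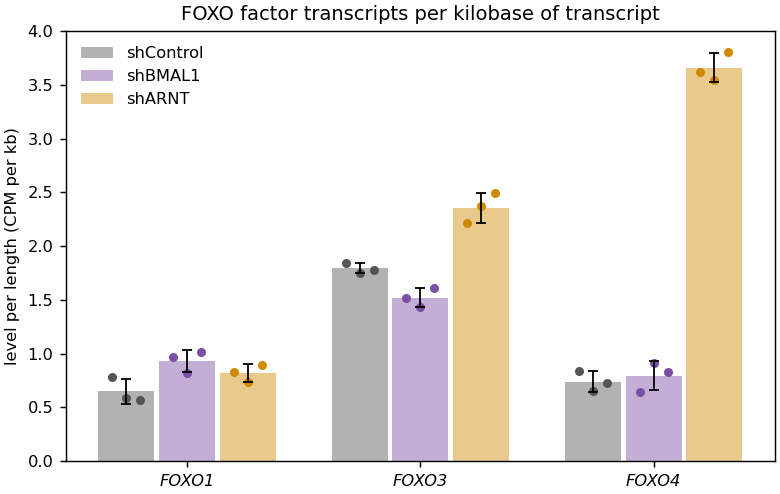
Level of FOXO1, FOXO3 and FOXO4 per kilobase of canonical transcript (vertical axis, CPM per kb) in shControl, shBMAL1 and shARNT. Bars are means, error bars the SD over 3 libraries and points single libraries, and FOXO4 in shARNT is the highest bar at 3.66 CPM per kb.

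RefSeq promoter windows from 250 bases before to 50 bases after a start site (GRCh38.p14) were searched for short motifs, since ARNT, BMAL1 and FOXO proteins all bind DNA. The table matched the 9 members other than FBXO32 with 15 windows, some genes having several start sites and FOXO3 overlapping windows. The FOXO core letters TGTTTAC, on either strand, were found in 3 of the 15 windows, compared with 3.42% of the 35116 windows of all genes. The 3 matches are shown with 11 bases on each side in the direction of the gene, the matched letters in capitals, because they are the places where these windows hold the letters that FOXO factors recognise.
FOXO4: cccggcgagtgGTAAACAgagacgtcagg
TXNIP: tcgggctcctgGTAAACAaggaccgggca
PIK3IP1: taaagagaggcTGTTTACcagaacagcat
They lie at chrX:71095863-71095891 (plus strand), chr1:145996686-145996714 (minus strand) and chr22:31292455-31292483 (minus strand). The TXNIP match starts 124 bases before the start site, and the others start 23 bases (FOXO4) and 16 bases (PIK3IP1) after it.

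The windows were also searched for the core letters bound by dimers of ARNT with HIF and by BMAL1 with CLOCK. None of these 15 windows held the E-box CACGTG, which 7.26% of all windows held. ACGTG, which overlaps the E-box, was found in 4 of 15 windows, of FOXO3, BCL6 and TXNIP (21.4% of all windows), and GCGTG in 5 of 15, of FOXO3, FOXO4 and TXNIP (36.5% of all windows). The matches of ACGTG are shown in the same way for all 3 genes, FOXO3 having a pair of sites.
FOXO3 first site: ttcgctggccgCACGTcttcaggtcct
FOXO3 second site: ttcgcggcgtcCACGTccctcccccgc
BCL6: tcctcccctgcCACGTagcagtggtaa
TXNIP: tggtttgaattACGTGttgttgcttcc
The FOXO3 sites lie at chr6:108560935-108560961 and chr6:108561117-108561143 (plus strand), 219 and 37 bases before a start site, and the first also lies 29 bases after another start site. The others lie at chr3:187745512-187745538 (BCL6) and chr1:145995891-145995917 (TXNIP), both on the minus strand, 59 and 162 bases before the start site. A match is a description of letters and does not show binding.

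FBXO32 encodes the substrate-binding subunit of an SCF ubiquitin ligase. The shControl libraries had 124, 148 and 108 counts, the shBMAL1 libraries 595, 690 and 624, and the shARNT libraries 2438, 2747 and 3055. The groups were ordered shControl, shBMAL1, shARNT with wide gaps and no overlap. Mean levels were 3.83 ± 0.62 CPM, 18.6 ± 1.33 CPM and 69.3 ± 7.71 CPM. The level in shBMAL1 was 4.85-fold that in shControl (log2 fold change 2.28, SE 0.112), given without a p-value because the shControl libraries also served to select the gene. Among called rises in shBMAL1 at an average log2 CPM of 2 or more over the 9 libraries, it ranked 25 of 4204. This rank is a description, since it rests on the same shControl libraries. Unlike the shARNT rank below, it did not require groups without overlap. The ARNT transcript was lower in the same shBMAL1 libraries, as given above, and its part in this difference was not tested.

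The values that selected FBXO32 were as follows. In shARNT against shControl its log2 fold change was 4.18 (SE 0.104). It ranked 3 of 4968 called rises whose average log2 CPM reached 2 and whose groups did not overlap. SSTR5-AS1 (4.54) and BDNF (4.18) stood before it, and TJP3 (3.60) and IGFN1 (3.55) were the first genes outside the leading 3. Between shARNT and shBMAL1 the log2 fold change was 1.90 (SE 0.0842).

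**Figure D2:**
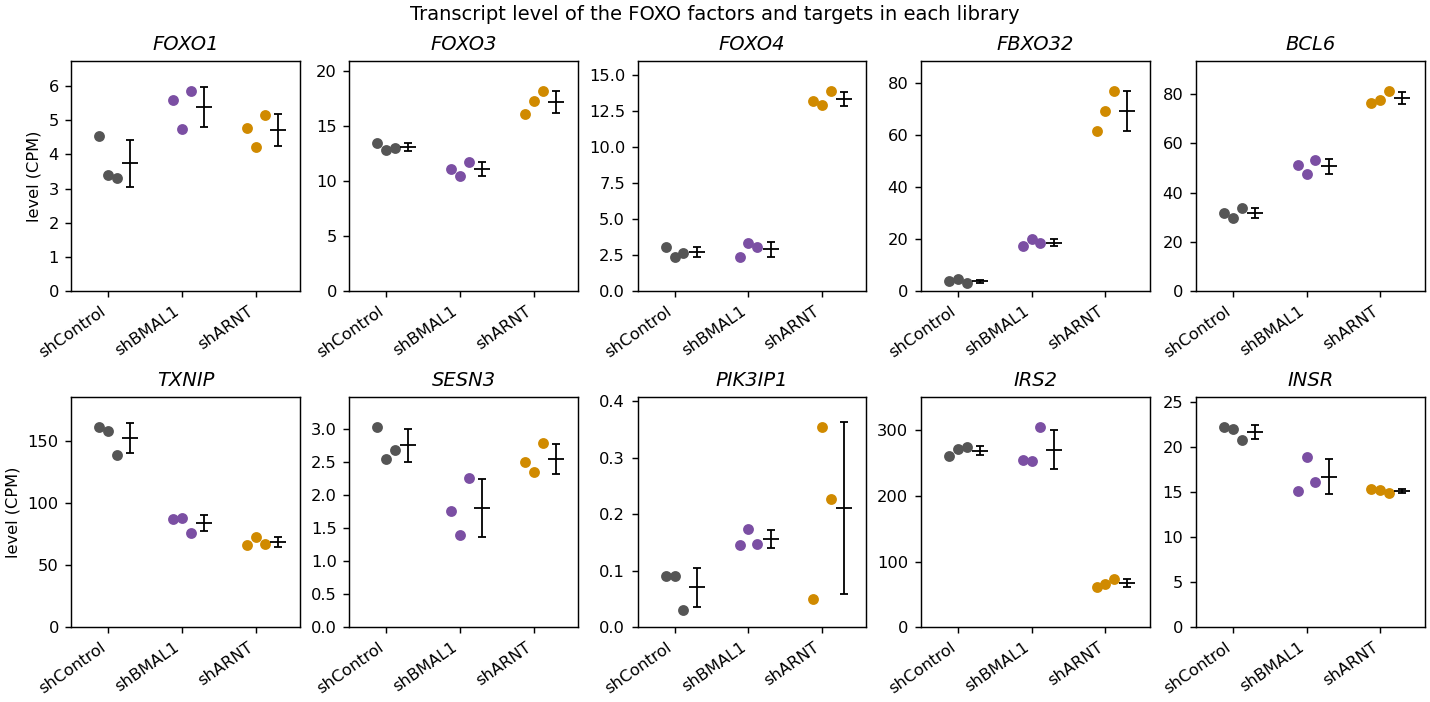
Level of each of the 10 members in CPM (vertical axes, linear, each from 0) in the 3 libraries of each group, with the mean and SD beside the points. FBXO32 and BCL6 step up from shControl to shBMAL1 to shARNT, FOXO4 and IRS2 stand apart in shARNT, and TXNIP is lower in both depletions.

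BCL6 (chromosome 3, 187439165 to 187463513) encodes a transcriptional repressor that FOXO factors activate in lymphocytes. It had the same order of groups as FBXO32 with smaller steps. Its levels were 29.5 to 33.9 CPM in shControl, 47.4 to 53.4 CPM with shBMAL1 and 76.5 to 81.2 CPM with shARNT, without overlap. BCL6 rose in shBMAL1 (log2 fold change 0.67, SE 0.0606, adjusted p = 9.5e-09). It was higher again in shARNT than in shBMAL1 (log2 fold change 0.63, SE 0.0574, adjusted p = 3.41e-09), and shARNT against shControl gave 1.30 (SE 0.0595).

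TXNIP (chromosome 1, 145438490 to 145442635) went the other way. It encodes a thioredoxin-binding arrestin that restrains glucose uptake, and it is driven by the glucose-sensing factors MLXIP and MLXIPL as well as by FOXO. Counts were 5354, 5193 and 4572 in shControl, 2971, 3023 and 2584 in shBMAL1, and 2617, 2876 and 2643 in shARNT. All 6 depleted libraries lay well below the controls. TXNIP fell in shBMAL1 to 54.8% of shControl (log2 fold change -0.87, SE 0.062, adjusted p = 3.1e-10), and in shARNT the log2 fold change was -1.15 (SE 0.0623). The difference between the depletions was small (log2 fold change -0.29, SE 0.0629, adjusted p = 3.49e-04) and was not called when libraries were scaled by their size alone (-0.10, adjusted p = 0.175).

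SESN3 (chromosome 11, 94898677 to 94965705) encodes a sestrin, a stress protein that restrains mTORC1 and is a known FOXO target. It had few reads, with 101, 84 and 89 counts in shControl, 60, 48 and 77 in shBMAL1, and 99, 93 and 111 in shARNT. The shBMAL1 libraries were the lowest, and shControl and shARNT overlapped. SESN3 fell in shBMAL1 (log2 fold change -0.61, SE 0.196, adjusted p = 0.0112). It was higher in shARNT than in shBMAL1 (0.50, SE 0.194, adjusted p = 0.0249), a call that was lost without shBMAL1 replicate 2 (0.34, adjusted p = 0.131). Against shControl the log2 fold change of shARNT was -0.11 (SE 0.186).

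The remaining members act at the top of the insulin pathway. IRS2 (chromosome 13, 110405042 to 110438930) encodes an adaptor that links the insulin receptor to PI3K. It had 8680, 8938 and 9049 counts in shControl, 8695, 8715 and 10365 in shBMAL1, and 2449, 2610 and 2930 in shARNT. The shARNT libraries lay far below all others. The shBMAL1 libraries did not stand apart from shControl (log2 fold change 0.01, SE 0.063, adjusted p = 0.901), with an interval from -0.12 to 0.14. IRS2 in shARNT was at 24.8% of its shBMAL1 level (log2 fold change -2.01, SE 0.0668, adjusted p = 2.81e-16), and against shControl the log2 fold change was -2.00 (SE 0.0669).

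INSR (chromosome 19, 7112266 to 7294425), the insulin receptor gene, was lower in both depletions. Its levels were 20.7 to 22.2 CPM in shControl, 15.2 to 18.9 CPM with shBMAL1 and 14.8 to 15.3 CPM with shARNT, so that the depletions overlapped with each other but not with shControl. INSR fell in shBMAL1 (log2 fold change -0.37, SE 0.0813, adjusted p = 5.77e-04), and shARNT against shControl gave -0.52 (SE 0.081). The difference between the depletions was -0.14 (SE 0.0823, adjusted p = 0.116) with an interval from -0.32 to 0.03. It passed the threshold without shBMAL1 replicate 1 (-0.21, adjusted p = 0.0333) or without shBMAL1 replicate 3 (-0.18, adjusted p = 0.0923), and it had the opposite sign under library size alone (0.05, adjusted p = 0.626).

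PIK3IP1 (chromosome 22, 31677580 to 31688520), whose product inhibits PI3K, was barely detected. It had 3, 3 and 1 counts in shControl, 5, 6 and 5 in shBMAL1, and 2, 14 and 9 in shARNT. It did not pass the filter on low counts and was not tested, and no fold change is given because shControl lay at the floor of 3 counts per library.

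Counted together, 9 of the 10 members were tested. In shBMAL1 against shControl 6 of the 8 tested members other than FBXO32 were called at an adjusted p under 0.1, with FOXO1 and BCL6 higher, FOXO3, TXNIP, SESN3 and INSR lower, and FOXO4 and IRS2 not called. Of all genes tested, 63.4% were called in this comparison, 31.9% higher and 31.5% lower. The median log2 fold change was -0.11 over these 8 members and 0.00 over all genes. The members thus did not share a direction. In shARNT against shBMAL1, which uses no control library, 6 of the same 8 were called, with FOXO3, FOXO4, BCL6 and SESN3 higher and TXNIP and IRS2 lower. The background there was 81.2% of all genes, 40.1% higher and 41.1% lower, and the medians were 0.18 over these 8 members and -0.01 over all genes. In shARNT against shControl, which selected FBXO32, 5 members were past the threshold as higher and 3 as lower, where 81.8% of all genes were called, 40.5% higher and 41.3% lower, and nothing is read from that count. Under library size alone 60.5% of the calls in that comparison were higher, in place of 49.6%.

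**Figure D3:**
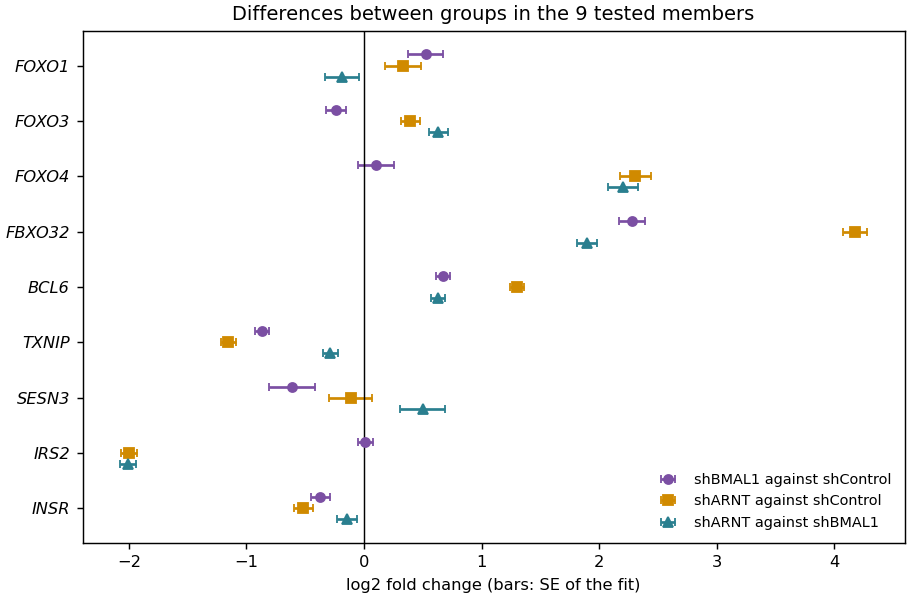
Log2 fold change (horizontal axis) of the 9 tested members in shBMAL1 against shControl, shARNT against shControl and shARNT against shBMAL1, with bars of 1 SE. FBXO32 lies farthest to the right in both depletions, FOXO4 and IRS2 lie near 0 in shBMAL1 only, and FOXO3 changes side between the depletions.

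The wider pathway was described with 5 gene lists, whose 104 genes were all in the table and of which 96 were tested. In shBMAL1 76 of them were called, 46 higher and 30 lower (79.2%), and in shARNT against shControl 86 were called, 53 higher and 33 lower (89.6%), beside the background of 63.4% and 81.8%. The medians were 0.08 and 0.21 on the log2 scale, and scaling by library size alone shifted the median of all genes from 0.00 to 0.05 in shBMAL1 and from -0.01 to 0.23 in shARNT. In shARNT against shBMAL1 80 were called, 49 higher and 31 lower (83.3%), near the background of 81.2%. The lists were chosen with results of these data known.

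The list of insulin receptor, PI3K and AKT signalling had 24 tested genes. In shBMAL1 13 rose and 7 fell, and likewise 13 rose and 7 fell in shARNT. The share called was 83.3% in each, beside 63.4% of all genes in shBMAL1 and 81.8% in shARNT. Single genes differed widely. IRS1, the other main insulin receptor substrate, had 1428 to 1528 counts in shControl, 2486 to 2716 with shBMAL1 and 940 to 1065 with shARNT. It rose in shBMAL1 (log2 fold change 0.77, adjusted p = 4.98e-10) and fell in shARNT (-0.80, adjusted p = 1.66e-10). IRS1 and IRS2 were thus both lower in shARNT than in shBMAL1.

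PIK3CA, the catalytic PI3K subunit, showed the reverse, with a fall in shBMAL1 (-0.70, adjusted p = 7.74e-07) and a rise in shARNT (0.43, adjusted p = 5.49e-05). INPP5D encodes the lipid phosphatase SHIP1. Its log2 fold change was -1.66 in shBMAL1 (7 to 11 counts) and 2.89 in shARNT (217 to 286 counts), given as a description without a p-value. Its mean level was 0.867 CPM in shControl, 0.273 CPM in shBMAL1 and 6.46 CPM in shARNT. It thus met the limit of an average log2 CPM of 0 only through the shARNT libraries, and neither its rank nor its differences are read. PIK3CA was thus called in opposite directions in the depletions. AKT1 fell in both, by 0.39 and 0.48 on the log2 scale (adjusted p = 1.04e-07 and 1.66e-09). SGK1, a kinase that also phosphorylates FOXO3, fell in both as well (-1.25 in shBMAL1, adjusted p = 1.82e-06, and -0.68 in shARNT, adjusted p = 5.17e-04).

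AKT2 was not called in shBMAL1 (0.00, adjusted p = 0.944). Its call in shARNT (0.08, adjusted p = 0.0869) held under only 6 of the 15 alternatives. It was lost when any single library was left out other than shBMAL1 replicates 1 and 3, and also under some of the other settings. With single libraries left out the values were -0.02 to 0.02 in shBMAL1 and 0.06 to 0.09 in shARNT. IGF1R rose in shARNT (0.69, adjusted p = 1.62e-06), and its fall in shBMAL1 (-0.23, adjusted p = 0.0542) was not called under library size alone (-0.19, adjusted p = 0.121), without shControl replicate 3 (-0.18, adjusted p = 0.187) or without shBMAL1 replicate 3 (-0.20, adjusted p = 0.14). TRIB3, a pseudokinase that binds AKT, had the largest fall in shARNT (-2.89, adjusted p = 3.59e-18).

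Of 22 tested FOXO cofactors and regulators, 8 rose and 7 fell in shBMAL1, and 14 rose and 5 fell in shARNT. The shares called were 68.2% and 86.4%, near the 63.4% and 81.8% of all genes. MDM2, which encodes a ubiquitin ligase for p53 and FOXO, had the largest rise in both depletions (0.76 in shBMAL1, adjusted p = 2.21e-10, and 1.37 in shARNT, adjusted p = 3.08e-15). PRMT1, an arginine methyltransferase that modifies FOXO1 beside its AKT site, was at 134 ± 9.52 CPM in shControl, 40.4 ± 2.25 CPM in shBMAL1 and 322 ± 2.18 CPM in shARNT. It fell in shBMAL1 (-1.73, adjusted p = 9.39e-16) and rose in shARNT (1.27, adjusted p = 2.89e-15). SIRT2, a deacetylase of FOXO proteins, had the largest fall in shARNT (-0.60, adjusted p = 3.41e-10).

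A list of 45 other FOXO targets held 37 tested genes. In shBMAL1 21 rose and 12 fell (89.2% called, beside 63.4% of all genes), with a median log2 fold change of 0.21. In shARNT 20 rose and 15 fell (94.6% called, beside 81.8% of all genes), with a median of 0.50. The median of all genes in shARNT was -0.01, and 0.23 under library size alone. PDK4, a kinase that shuts pyruvate out of mitochondrial oxidation, had the largest rise in both among genes at an average log2 CPM of at least 0, with 51 to 69 counts in shControl, 171 to 243 with shBMAL1 (log2 fold change 1.75, adjusted p = 7.95e-09) and 506 to 576 with shARNT (2.90, adjusted p = 2.45e-13). CDKN1B, which encodes the cell cycle inhibitor p27, rose in both (0.51, adjusted p = 3.82e-06, and 1.38, adjusted p = 1.78e-13). The sestrin genes SESN1 and SESN2, which p53 and ATF4 also drive, rose in both depletions, SESN1 by 0.73 and 1.41 and SESN2 by 0.61 and 1.65 on the log2 scale (largest adjusted p = 4.19e-07). Their paralog SESN3 fell in shBMAL1, as given above.

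Other targets fell. C10orf10, the older symbol of DEPP1, a gene that both FOXO and hypoxia induce, had 4150 to 4487 counts in shControl and 248 to 357 in shARNT, the largest fall there (log2 fold change -4.09, adjusted p = 2.54e-19), and fell in shBMAL1 as well (-0.55, adjusted p = 1.23e-06). ERBB3, a receptor gene that FOXO factors raise when AKT is blocked, had the largest fall in shBMAL1 (-3.07, adjusted p = 7.52e-16) and also fell in shARNT (-2.87, adjusted p = 8.45e-17). CCNG2, a cyclin G gene used as a FOXO readout, fell in shBMAL1 (-0.28, adjusted p = 0.00213). Its fall in shARNT (-0.25, adjusted p = 0.00335) was not called under library size alone (-0.01, adjusted p = 0.896). TRIM63, the muscle ubiquitin ligase gene usually raised beside FBXO32 in atrophy, had 0 counts in 8 libraries and 3 counts in 1 shBMAL1 library, and it was not tested.

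**Figure D4:**
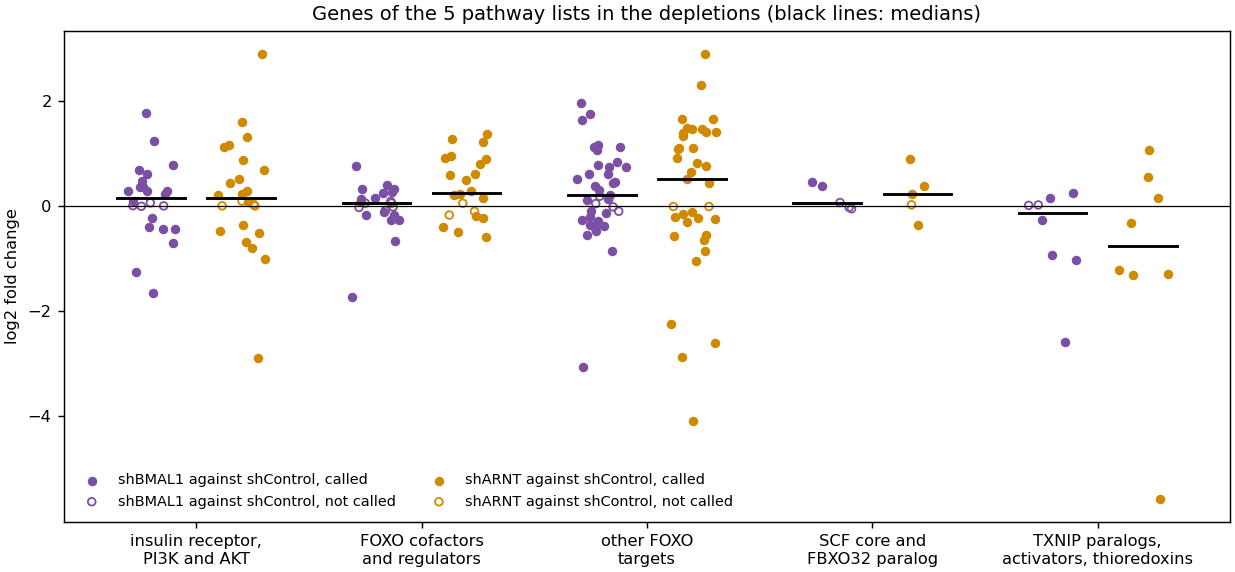
Log2 fold change (vertical axis) of each tested gene of the 5 lists in shBMAL1 and in shARNT, both against shControl, with filled points for called genes, open points for genes not called and black lines for medians. The lists spread to both sides of 0, and the lowest points are MLXIPL (-5.58) and C10orf10 (-4.09), both in shARNT.

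The last lists held the partners of FBXO32 in the SCF ligase and the surroundings of TXNIP. Of 5 ligase genes tested, 2 were called in shBMAL1, both higher, and in shARNT 3 rose and 1 fell. Called shares were 40.0% and 80.0%, beside 63.4% and 81.8% of all genes. RBX1, the RING subunit, rose in shBMAL1 (0.46, adjusted p = 6.45e-07), and SKP1, the adaptor that holds F-box proteins, rose in both (0.39, adjusted p = 2.84e-07, and 0.89, adjusted p = 1.57e-13). FBXO25, the closest paralog of FBXO32, was not called in shBMAL1 (0.06, adjusted p = 0.563). In shARNT it fell (-0.35, adjusted p = 0.00129), which was not called under library size alone (-0.12, adjusted p = 0.233).

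Of 8 genes around TXNIP that were tested, 2 rose and 4 fell in shBMAL1, and 3 rose and 5 fell in shARNT. Called shares were 75.0% and 100%, beside 63.4% and 81.8% of all genes. MLXIPL, which encodes the glucose sensor ChREBP, had 1741 to 2107 counts in shControl, 281 to 371 with shBMAL1 and 44 to 52 with shARNT. It had the largest fall in both depletions (-2.58, adjusted p = 7.47e-15, and -5.58, adjusted p = 3.05e-19). MLXIP, which encodes the sensor MondoA and whose values sum the table's rows of that name, fell by 1.03 in shBMAL1 and 1.29 in shARNT on the log2 scale (adjusted p = 3e-13 and 1.17e-15).

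ARRDC4, an arrestin gene that the same sensors drive, fell by 0.93 and 1.32 on the log2 scale (adjusted p = 5.62e-10 and 5.36e-13). ARRDC3, a further paralog, was not called in shBMAL1 (0.01, adjusted p = 0.904) and fell in shARNT (-1.23, adjusted p = 2.68e-14). In contrast, the genes of the redox pair that TXNIP binds into rose. TXN, thioredoxin itself, rose by 0.15 and 0.55 (adjusted p = 0.00162 and 2.47e-11), and TXNRD1, its reductase, by 0.24 and 1.05 (adjusted p = 3.27e-06 and 1.31e-16).

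Genes with a profile near that of FBXO32 were sought among 11226 genes. The measure was the root-mean-square difference over the 9 libraries of log2(CPM + 0.5) centred on shControl. A profile like that of FBXO32 is thus what chose these genes and is no separate result. SSTR5-AS1, BDNF and IGFN1 were also among the 5 leading rises in shARNT given above. SSTR5-AS1 was nearest (0.213), with means of 0.696, 5.04 and 16.2 CPM in shControl, shBMAL1 and shARNT. The added 0.5 is near the shControl level of SSTR5-AS1 and BDNF and shrinks their differences. For SSTR5-AS1 the fitted log2 fold changes were 2.85 in shBMAL1 and 4.54 in shARNT, beside 2.28 and 4.18 for FBXO32. As an antisense transcript it is uncertain, since it is not known whether reads were counted by strand. IGFN1 (0.588), the neurotrophin gene BDNF (0.631), the phosphatase gene PPM1H (0.696) and the stress cytokine gene GDF15 (0.774) followed. GDF15 was at 54.1 ± 3.81 CPM in shControl, 144 ± 14.4 CPM in shBMAL1 and 416 ± 3.52 CPM in shARNT. In the same order of groups BDNF had 0.816, 10.7 and 14.9 CPM, and its step between the depletions (log2 fold change 0.48) was smaller than that of FBXO32.

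**Figure D5:**
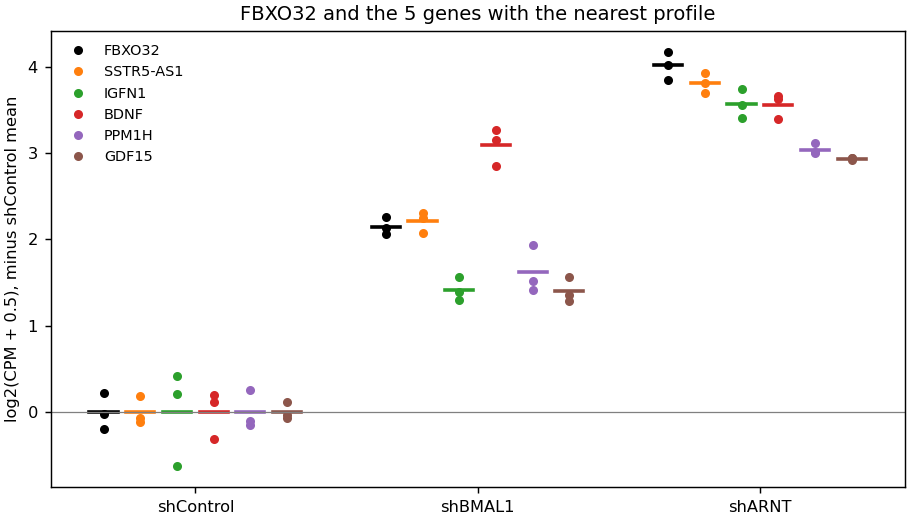
Profile of FBXO32 and the 5 nearest genes as log2(CPM + 0.5) minus the shControl mean (vertical axis) in the 3 groups. Points are single libraries and short lines group means. The 5 genes were chosen for their nearness to FBXO32, so the shared step up over the 3 groups follows from the choice.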

How the data were processed

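RNA from 9 A498 libraries was sequenced as stranded, paired-end mRNA libraries. The deposited values were expected counts, which the authors exported per gene without normalization. The methods name SeqMan NGen, ArrayStar and GRCh37, and the submitters' processing notes name STAR, DESeq2 and hg38. The annotation release, the use of strand, the handling of reads with several alignments and the choice between reads and pairs are not given in the sources used here. A value of 0.05 stood for no reads and was set to 0, 45 names on several rows were summed, and values were rounded. Totals were 35269851 to 36099075 counts.

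All 9 libraries entered a single fit of edgeR 4.0.16 (quasi-likelihood F-test, TMM, filterByExpr, R 4.3.3) with group as the only factor, with p-values adjusted over all 15551 genes tested (Benjamini-Hochberg, threshold 0.1). Intervals are 95% and use the t distribution with 19.3 degrees of freedom. The calculation was also run on simulated data in which few genes changed. Most genes were called in these data, so that run does not test the scaling used here. Library pairs of a group differed by 2.12 to 2.45 times sampling noise (chi-square per gene at mean counts of 10 to 50), so none was merged. The labels call the replicates biological without naming separate cultures, and p-values measure only the spread between these samples.

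The alternatives were library size alone, DESeq2 1.42.0, no filter on low counts, the 6 libraries compared, a replicate block, halved counts and leaving out each library. Gene positions and lengths came from GENCODE release 44 lifted to GRCh37, and promoters from RefSeq. Named genes were the members, a fixed list of pathway genes (some of which are not reported here), the largest called rise and fall of each list in each depletion at an average log2 CPM of at least 0, the 5 genes nearest to FBXO32, and the 5 leading rises in shARNT. Members and lists were chosen with earlier results of these data known. The planned comparison of FOXO proteins was not run.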

Additional observations from a re-analysis of the deposited data

Results flagged for a closer look

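The results below are listed because they were called in the direct edgeR quasi-likelihood contrast of shARNT with shBMAL1 (adjusted p under 0.1). In that contrast 81.2% of all genes were called, beside 6 of the 8 tested members other than FBXO32 and 83.3% of the tested list genes. A call there therefore does not set a gene apart. Values are log2 fold changes, positive where shARNT was higher, and no explanation was tested.

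Among the members the difference was 0.63 for FOXO3, 2.20 for FOXO4, 0.63 for BCL6, 0.50 for SESN3, -0.29 for TXNIP and -2.01 for IRS2. FOXO3 was called lower in shBMAL1 and its shARNT libraries all lay above shControl.

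In insulin and PI3K signalling the genes higher in shARNT were PIK3CA (1.13), SGK1 (0.57) and IGF1R (0.92). INPP5D (4.55) was named only through its shARNT level, as given above, and is not read. The genes lower there were AKT1 (-0.086), IRS1 (-1.57) and TRIB3 (-2.46). The AKT1 difference reversed under library size alone (0.10, adjusted p = 0.0319), and it was not called under DESeq2, without the filter or without shBMAL1 replicate 2 or shARNT replicate 1 or 2 (-0.09 to -0.07).

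Cofactors that differed were MDM2 (0.60), PRMT1 (2.99) and SIRT2 (-0.51). Among other FOXO targets, SESN1 (0.67), SESN2 (1.03), CDKN1B (0.87), PDK4 (1.14) and ERBB3 (0.20) were higher in shARNT, and C10orf10 (-3.54) was lower. The ERBB3 difference was near the threshold (adjusted p = 0.0937) and was lost in the fit of the 6 libraries, under DESeq2, halved counts or no filter, and without any single library other than shARNT replicate 1 (adjusted p up to 0.389, without shARNT replicate 2).

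Among the ligase subunits, SKP1 was higher in shARNT (0.51), and RBX1 (-0.44) and FBXO25 (-0.42) were lower. Of the genes around TXNIP, TXN (0.40) and TXNRD1 (0.81) were higher and ARRDC3 (-1.23), ARRDC4 (-0.39), MLXIP (-0.26) and MLXIPL (-2.99) were lower.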

How the results depend on the processing

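FBXO32 was selected on these libraries, so nothing is read from its part in the counts against shControl, which include it. So counted, 7 members were called in shBMAL1 against shControl under all 15 alternatives (main value 6 without FBXO32). In shARNT against shControl 7 to 8 were past the threshold (main value 7 without FBXO32), and nothing is read from that count. Counted without FBXO32, 5 to 7 were called in shARNT against shBMAL1 (main value 6). The main fit called 63.4%, 81.8% and 81.2% of all genes in these 3 comparisons. With the replicate block the counts taken in this way were 7 (shBMAL1), 6 (direct) and 8 (shARNT) members. Over all genes they were 9833, 12591 and 12684. Same-numbered libraries did not deviate together (correlations from -0.04 to 0.08), so the numbers were not taken as pairs, and the block changed no call of a named gene. The counts over all genes and over the lists stayed within 1.5 times the main count.

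Some signs changed. Under library size alone the values were 0.0155, 0.0469 and 0.0624 for FOXO6 in the 3 comparisons (shBMAL1, direct, shARNT), 0.0457 for INSR and 0.10 for AKT1 in the direct one, and 0.12 for SESN3 in shARNT against shControl. DESeq2 gave -0.0018 for AKT2 in shBMAL1, and the 6 libraries alone gave -0.0015 for AKT2. Leaving out single libraries gave ranges across 0 in shBMAL1 for FOXO4 (-0.0048 to 0.24), IRS2 (-0.0823 to 0.0555), AKT2 (-0.0172 to 0.0212), FOXO6 (-0.33 to 0.13) and ARRDC3 (-0.0182 to 0.0331), in the direct comparison for CCNG2 (-0.0082 to 0.089) and FOXO6 (-0.31 to 0.16), and in shARNT for RBX1 (-0.023 to 0.0805). The FOXO1 value in shARNT against shControl, given as a description, was 0.25 to 0.49 with single libraries left out. The direct difference of TXNIP and MLXIP was not called under library size alone (-0.10 and -0.07). The cause of these shifts was not tested. PIK3IP1 and TRIM63 had too few counts to be tested.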
